A study of Homo sapiens with 3 samples.

Results

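The state of L428tetPU.1 cells 3 days after tetracycline was withdrawn was compared with day 0, on 1 Illumina bead array a day. L428tetPU.1 cells are a derivative of L428, a long-established line grown from classical Hodgkin lymphoma. They carry a PU.1 gene that is held off by tetracycline, 500 ng/ml of which was in the culture medium per the labels. The day 0 cells carry the same construct, and an array from day 1 served in the joint normalization and is given beside the other days. The sources used here do not say whether the line is 1 clone, and no array of cells without the construct was used, so that PU.1, the loss of tetracycline and days in culture cannot be told apart. The described genes are those with a named probe above background, by a detection p-value under 0.01, at day 0 or day 3. They are 9190 of the 19367 named genes on the array. Of these, 8312 were above background on both arrays, 588 only at day 3 and 290 only at day 0.

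PU.1 is the protein of the SPI1 gene, an ETS family factor that binds purine-rich DNA around a GGAA core, often in partnership with interferon regulatory factors. It directs the formation of macrophages, granulocytes, dendritic cells and B cells, and it is often silenced in Hodgkin lymphoma. The tumour cells of this lymphoma, the Reed-Sternberg cells, come from B cells but have lost most B cell genes, while they secrete chemokines and depend on NF-kB and cytokine signalling.

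With 1 array a day there was no replicate and no test between days, and the design text's 4 independent experiments are not separate values in the files. A fixed size rule was used instead: a gene "rose" or "fell" if its normalized signal changed at least 2-fold. Where 1 array of the pair was not above background, the change is a bound, set against the lowest signal above background there, and is written "at least". Changes are differences of normalized log2 signal, day 3 less day 0. Intensities are the deposited bead signals, on a linear scale, and those above background began at 70.4, 64.5 and 67.0 on the arrays of days 0, 1 and 3. The error between probes of a change was 0.29 log2 (SD, from 488 genes with a pair of probes). It leaves out the spread between cultures. Calls that ended in the authors' own values, without background correction, with an offset of 50 in place of 16 or with the mean of a gene's probes are named in each paragraph.

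The arrays fitted the label of the line in part. Among markers of Reed-Sternberg cells, 11 of 14 were above background at day 0 and 12 at day 3, with summed intensities of 30264.7 and 36091.4. TNFRSF8, the CD30 antigen of these cells, stood at 1209.5 at day 0, 1200.2 at day 1 and 732 at day 3. B cell markers were above background for 2 of 14 at day 0 and 3 at day 3, and PAX5, MS4A1 and CD79A were not above background on any array. No marker of T cells (11), NK cells (8) or fibroblasts and epithelium (10) was above background on either day. Monocyte and macrophage markers went from 3 to 6 of 20, with summed intensities of 1009.0, 5489.6 and 1724.3 at days 0, 1 and 3. CD68 alone held most of the day 1 sum, and its intensities are given below with the lysosome genes. CSF1R, CD14 and LYZ were not above background. Dendritic cell markers went from 10 to 12 of 18, and their sum from 19020.9 to 40852.0, with BATF3, CCL17 and CCL22 in both this list and that of Reed-Sternberg cells. Plasma cell markers were above background for 4 of 9 on both days, with sums of 4521.1 and 5637.6. Of 14 granulocyte markers PRG2, the major basic protein of eosinophils, alone was above background, at 94.3, 2219 and 536 on the 3 days. In a bulk sample more cells of a type and more RNA per cell cannot be told apart. The probe for SPI1 itself was not above background, at 40.8, 35.3 and 38.9 on the 3 days, and the sources used here do not say whether it reads the introduced gene. GAPDH changed by -0.07 and ACTB by 0.00.

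At day 3, 455 of 9190 measured genes rose (4.95%) and 196 fell (2.13%). The remaining 8539 stayed within the rule, and 6650 (72.4%) changed by less than 1.5-fold. The rises were larger than the falls. The normalized change, with bounds left aside, was 4-fold or more in 128 genes that rose and 3 that fell. Some of these had bounds under 4-fold, among them ZNF69, at least 2.63-fold lower. The call of ZNF69 ended with the offset of 50. A bound stands behind 96 of the rises and 9 of the falls. The genes that rose had a median intensity of 150.6 at day 0 and 441.9 at day 3, and those that fell had medians of 368.6 and 154.2. All measured genes had medians of 322.75 and 295.85 on these days. The size rule itself favours a low day 0 signal among rises and a low day 3 signal among falls. At day 1 the rises and the falls had medians of 446.0 and 146.2. Day 1 and day 3 share the day 0 array, so these values stand side by side and no agreement is drawn from them. In the authors' values, which are not corrected for background, 315 genes rose and 259 fell, and the share of rises was 54.9% in place of 69.9%. The middle of all genes lay at -0.06 log2 and was shifted by -0.10 in those values. The counts turn on where the rule was set: 127 genes above background on both arrays lay within 0.1 log2 inside it and 209 within 0.1 log2 outside.

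**Figure D1:**
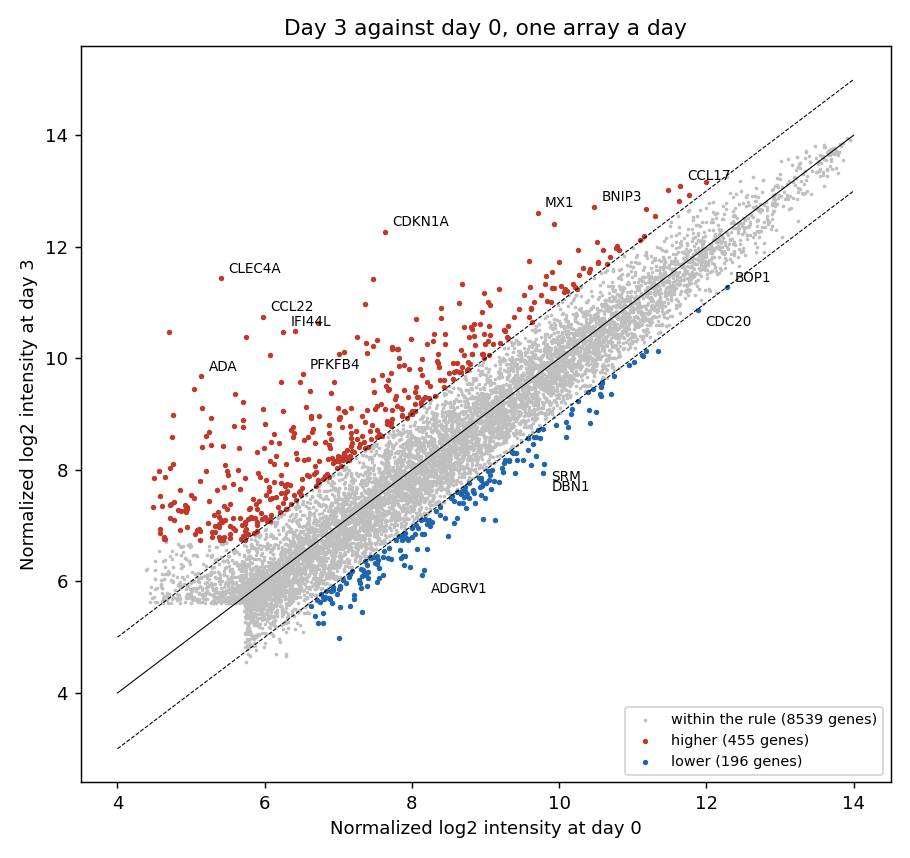
Each point is 1 of the 9190 measured genes, with normalized log2 intensity at day 0 on the x axis and at day 3 on the y axis. Red points are the 455 genes that rose, blue points the 196 that fell, grey points the 8539 within the rule, and the dashed lines mark 2-fold. The red points reach farther from the diagonal than the blue ones, and many start from low signal, which the rule itself favours among rises.

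CCL22, a chemokine that draws T cells bearing CCR4, had intensities of 81.0 at day 0, 221 at day 1 and 1671 at day 3. It had the largest rise of the genes above background on both arrays, 4.77 log2. CDKN1A, the p21 inhibitor of cyclin-dependent kinases, stood at 226, 6395 and 4904 on the same days, and its signal was lower at day 3 than at day 1. SIRPA, an inhibitory receptor of myeloid cells, and PLEK, a substrate of protein kinase C in platelets and leukocytes, were also lower at day 3 than at day 1, at 71.2, 2920.5 and 1304 and 104, 2890.0 and 1399. The cell junction gene CGNL1 went on rising, at 85.0, 469.5 and 1038. So did UPK1A, a membrane protein of the bladder lining, whose intensities of 152, 186 and 1052 put most of its rise of 3.06 log2 after day 1. CYB5A, an electron carrier of the endoplasmic reticulum, had a similar order of signals, at 113, 184 and 558, and rose by 2.57. By bound, CLEC4A, an inhibitory lectin of dendritic cells, led at 60.4, 1149.5 and 2659, at least 52.5-fold higher. LAD1, an anchoring filament protein, was at least 26.9-fold higher, and its second probe was above background at day 3 but not at day 0. TMEM45A, a membrane protein, was at 69.7, 101 and 483, at least 9.03-fold higher, and DYSF, which mends muscle membranes, at least 8.21-fold.

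The list of interferon-induced effectors, genes whose products block viruses or relay interferon signals, had 54 measured members, of which 40 rose and 0 fell. Its median change was 1.77 log2, against -0.06 for all measured genes, and 1.54 at day 1. With members that were above background on 1 array of the pair set at their bound, it was 1.61. IFI44L, a member of uncertain function, had intensities of 94.5 at day 0, 697 at day 1 and 1378 at day 3 and rose by 4.22. MX1, a GTPase that traps viral particles, stood at 930.2, 4392 and 6119 and rose by 2.90. These genes were higher at day 3 than at day 1, as was ISG20, an exonuclease of RNA, at 463, 793 and 2478. PARP9 and PARP14, which attach or recognise ADP-ribose, stood at 108, 734 and 751 and 210.2, 1325 and 1256, and HELZ2, a helicase, at 176, 1019 and 1296. SAMD9L, which restrains translation, was lower at day 3 than at day 1, at 193, 1620.1 and 1206. All 4 IFIT genes, which bind viral RNA, rose: IFIT1, IFIT2 and IFIT3 by 2.80, 2.65 and 2.50, with a family median of 2.57. IRF7, a master regulator of interferon genes, was at 66.1, 432 and 646, at least 12.4-fold higher, and XAF1, an antagonist of apoptosis inhibitors, rose by 3.03. In the authors' values 33 of the 54 rose.

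Sensors of foreign nucleic acid rose in part. Of 38 measured sensors and adaptors 10 rose and 0 fell, with a median of 0.65, or 0.57 with bounds. The 4 OAS genes, which answer double-stranded RNA by making oligoadenylates, all rose, 3 of them by bound. OAS2 stood at 80.8 at day 0, 481 at day 1 and 549 at day 3. The brightest and second brightest of its 4 probes rose by 3.13 and 1.89. The mean over its probes above background was lower, at 1.69. OAS1 was at least 6.62-fold higher, with a second probe at 2.23, and OAS3 was at least 13.2-fold higher. DHX58 and RIGI, helicases that detect viral RNA in the cytoplasm, had intensities of 87.7, 265 and 402 and 55.7, 169.7 and 189.9, each highest at day 3. ZBP1, a sensor of left-handed nucleic acid, was at least 3.12-fold higher. Of 39 TRIM ubiquitin ligases, a family rich in antiviral factors, 5 rose and 1 fell. TRIM10, TRIM15 and TRIM22 were at least 10.5-fold, 9.21-fold and 4.41-fold higher, TRIM38 rose by 1.40, PML, the organiser of nuclear bodies, by 1.31, and MID1, which binds microtubules, fell by 1.52. Members of the OAS, IFIT and TRIM families resemble each other, and a probe can read a relative. The call of PML ended with the offset of 50.

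**Figure D2:**
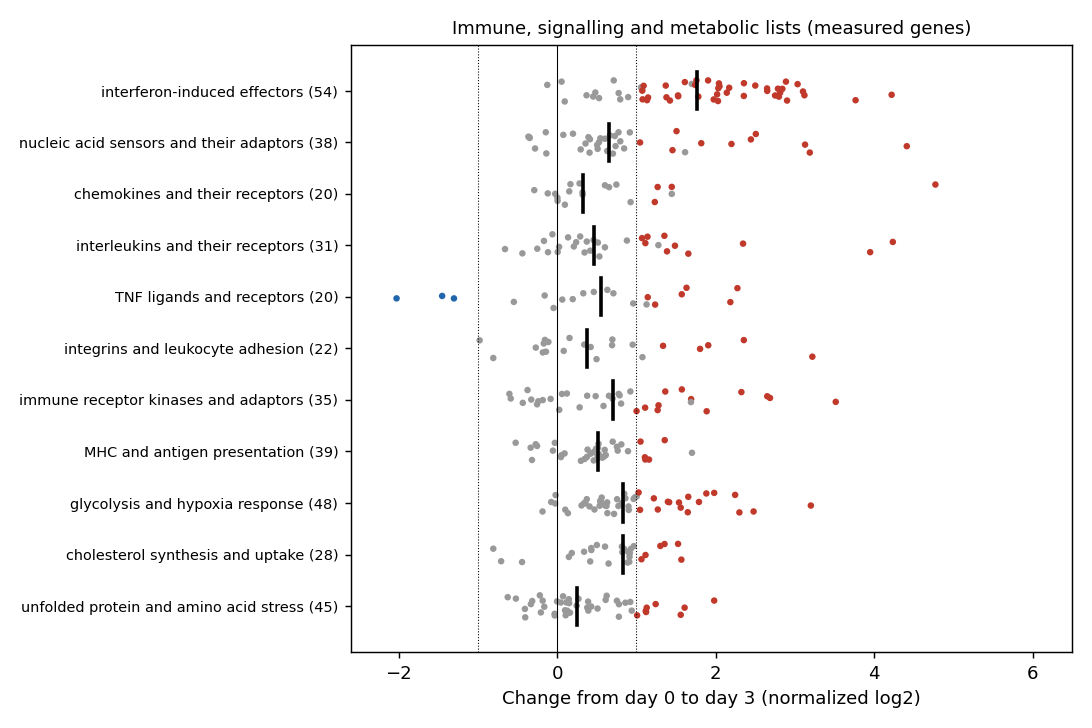
Each point is a measured gene, the x axis is its change from day 0 to day 3 in normalized log2, and black bars are list medians. Red and blue points passed the 2-fold rule, grey ones did not, and the number of measured genes stands beside each name. The interferon-induced effectors lie farthest right, with a median of 1.77, and the TNF family has points on both sides.

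The interferon-stimulated response element is the DNA sequence that interferon-activated complexes bind, and a composite of ETS and IRF sites is where PU.1 binds with IRF4 or IRF8. RefSeq windows (GRCh38.p14) of 250 bases before to 50 after the gene start were searched on both strands for 4 motifs: GAGGAAG for PU.1, GAAA with any 2 bases and GAAA for the response element, GGAA with any 2 bases and GAAA for the composite, and CACGTG for the E-box. A window was found for 7436 of the 9190 measured genes, and the first was used where the table lists several for 1 symbol. The response element was in 11.1% of 359 windows of genes that rose, 4.09% of 171 of genes that fell, 3.0% of all 7436 and 3.65% of 27305 RefSeq windows. The composite was in 8.08%, 2.92%, 2.64% and 2.84% of the same sets, and 9 measured genes had a composite match that overlapped a response element. The PU.1 motif was in 18.7%, 12.3%, 14.4% and 13.4%, and the E-box in 8.64%, 14.6%, 10.5% and 7.43%. These are matches of letters, with no test, and are no evidence of binding.

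By list, the response element was in 24 of 41 windows of interferon-induced effectors (58.5%) and the PU.1 motif in 8 of 14 windows of chemokines and their receptors (57.1%) and 13 of 28 of immune receptor kinases and adaptors (46.4%). The PU.1 motif was also in 16 of 52 windows of cytosolic ribosomal proteins (30.8%), of which few changed. The E-box was in 39 of 112 windows of ribosome biogenesis genes (34.8%), a list described below that held no rise. The stretches below show these matches in the 250 bases before the start, each printed along the gene's own strand, with capitals for a match. CCL22, OAS3 and IFI44L were taken by the size of their normalized change among genes with the PU.1 motif or the response element, that of OAS3 being set against a day 0 signal not above background, while BTK, INPP5D and RRP9 were chosen from their lists after the shares were seen.
CCL22 promoter, chr16:57358533-57358782, plus strand: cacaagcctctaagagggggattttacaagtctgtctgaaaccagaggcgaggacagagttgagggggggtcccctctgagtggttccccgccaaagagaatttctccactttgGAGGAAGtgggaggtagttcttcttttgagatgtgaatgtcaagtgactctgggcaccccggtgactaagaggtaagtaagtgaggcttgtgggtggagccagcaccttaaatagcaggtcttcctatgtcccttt
OAS3 promoter, chr12:112938224-112938473, plus strand: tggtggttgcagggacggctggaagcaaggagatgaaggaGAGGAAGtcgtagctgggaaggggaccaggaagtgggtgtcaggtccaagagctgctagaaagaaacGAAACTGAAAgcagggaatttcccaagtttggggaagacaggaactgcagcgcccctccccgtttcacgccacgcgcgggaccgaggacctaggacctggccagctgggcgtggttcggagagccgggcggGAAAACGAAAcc
IFI44L promoter, chr1:78620198-78620447, plus strand: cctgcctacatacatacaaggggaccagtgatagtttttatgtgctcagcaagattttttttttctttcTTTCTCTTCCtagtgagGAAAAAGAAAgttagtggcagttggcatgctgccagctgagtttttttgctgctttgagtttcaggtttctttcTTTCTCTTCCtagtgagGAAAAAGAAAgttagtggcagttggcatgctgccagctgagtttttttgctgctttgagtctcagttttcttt
BTK promoter, chrX:101390797-101391046, minus strand: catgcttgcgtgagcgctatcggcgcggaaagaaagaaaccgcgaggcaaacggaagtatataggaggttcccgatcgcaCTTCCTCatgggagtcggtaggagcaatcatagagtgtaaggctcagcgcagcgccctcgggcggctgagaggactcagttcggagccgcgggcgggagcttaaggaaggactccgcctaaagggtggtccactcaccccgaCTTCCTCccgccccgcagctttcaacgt
INPP5D promoter, chr2:233060092-233060341, plus strand: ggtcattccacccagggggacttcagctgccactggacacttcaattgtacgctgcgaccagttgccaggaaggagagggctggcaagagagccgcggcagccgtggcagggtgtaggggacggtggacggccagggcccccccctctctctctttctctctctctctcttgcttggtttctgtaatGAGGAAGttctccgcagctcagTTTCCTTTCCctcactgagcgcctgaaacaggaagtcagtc
RRP9 promoter, chr3:51941905-51942154, minus strand: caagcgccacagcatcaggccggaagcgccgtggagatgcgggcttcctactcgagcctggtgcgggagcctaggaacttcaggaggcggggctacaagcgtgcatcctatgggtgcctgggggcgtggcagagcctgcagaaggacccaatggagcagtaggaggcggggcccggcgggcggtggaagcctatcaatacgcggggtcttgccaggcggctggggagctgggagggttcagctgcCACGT

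The match in CCL22 is GAGGAAG, and its first base lies 136 bases before the start. OAS3 has the PU.1 motif 210 bases before the start and response elements 143 and 12 bases before it. IFI44L has a response element 164 and again 73 bases before the start, and a composite on the other strand 181 and 90 bases before it, within a stretch of 85 bases that recurs without a difference 91 bases on. BTK, the Bruton kinase, has the PU.1 motif on the other strand at 170 and 28 bases before the start, and INPP5D, the phosphatase SHIP1, has it at 63, with a composite on the other strand at 41. RRP9, which helps make the small ribosomal subunit, has its E-box from 5 bases before the start, and the last letter of that match lies beyond the printed stretch.

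Chemokines and cytokines rose in part. Of 20 measured chemokine and chemokine receptor genes 4 rose and 0 fell, beside 44 with probes that were not above background. After CCL22, CCL17, which binds the same receptor, rose by 1.45 from a high level, with intensities of 3488, 6069.6 and 8566. CCL20, which draws CCR6-bearing cells, stood at 505, 578 and 1059.6, and CXCL16, a membrane-bound chemokine, at 158, 443 and 325. Of 31 interleukin and receptor genes 10 rose and 0 fell, with a median of 0.46, or 0.37 with bounds. IL1A, an alarm cytokine, was at 40.9 at day 0, 194 at day 1 and 512 at day 3, at least 9.6-fold higher, and IL1B was at least 2.61-fold higher. IL12A, the p35 subunit shared by IL-12 and IL-35, stood at 204, 908 and 2636, while IL12B, the partner in IL-12, was not above background on any array. IL6 had nearly all of its rise after day 1, at 168, 179.8 and 407, and IL10RA, a receptor chain for IL-10, was highest at day 1, at 112, 437 and 302. The call of IL1B ended with the offset of 50.

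The TNF family went both ways, with 6 rises and 3 falls among 20 measured. CD40, the receptor through which T cells help B cells, had intensities of 258 at day 0, 1440.4 at day 1 and 1002 at day 3, and rose by 2.19. TNFRSF9, the 4-1BB receptor, was at least 3.75-fold higher, and its ligand TNFSF9 rose by 1.63. TNFSF4, the OX40 ligand, stood at 138, 181 and 355, and LTA, lymphotoxin alpha, rose by 1.24 and TNF by 1.14. TNFRSF21, a death receptor, stood at 625, 221 and 154 and fell further after day 1, to a change of -2.02. TNFSF14, the LIGHT ligand, fell by 1.45 and TNFRSF19 fell by 1.30. All 3 were already low at day 1, and TNFRSF21 alone among them was lower still at day 3. The call of TNF ended in the authors' values, and that of TNFRSF19 with the offset of 50.

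Some leukocyte surface and adhesion genes rose. Of 22 measured integrin and adhesion genes 5 rose (22.7%, against 4.95% of all measured genes) and 0 fell. Their median was 0.38, and 0.12 among those above background on both arrays. SLAMF1, a self-binding receptor of lymphocytes, was at 36.9, 281 and 248, at least 4.41-fold higher. ITGB2 and ITGAM, which pair as the leukocyte integrin Mac-1, stood at 46.3, 99.0 and 172 and 61.6, 249 and 179.8, at least 2.94-fold and 3.1-fold higher. The integrin ligands ICAM3 and ICAM1 rose by 1.80 and 1.34. Of 19 tetraspanins 4 rose (21.1%) and 0 fell, while 11 lay below 0, with a median of -0.04. Among the rises, CD53 and CD37, which are specific to white blood cells, were at least 3.76-fold and 2.87-fold higher. CD82 was at least 2.41-fold higher, but its second probe changed by 0.17, and TSPAN31 rose by 1.20. Of 44 G protein-coupled receptors 4 rose (9.09%) and 2 fell (4.55%), against 4.95% and 2.13% of all measured genes. GPR183, which guides B cells by oxysterols, stood at 1608, 2228 and 3259, and LPAR2, a receptor for lysophosphatidic acid, at 252, 1564 and 626, far below its day 1 signal. GPR137B and GPR132 rose by 1.60 and 1.01. The adhesion receptors ADGRV1 and ADGRF5 stood at 318, 61.3 and 87.7 and 760.2, 69.9 and 258, and were higher at day 3 than at day 1 while still below day 0. The call of GPR132 ended in the authors' values, without background correction and with the offset of 50, and that of CD82 with the offset of 50 and with the mean of probes.

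Immune receptor kinases and adaptors, which pass signals inward from B cell and other immune receptors, had 12 rises and 0 falls among 35 measured. Their median was 0.70, or 0.65 with bounds, and 1.07 at day 1. HCST, the adaptor DAP10, was at 69.7 at day 0, 431 at day 1 and 591 at day 3, at least 11.3-fold higher. BTK stood at 52.1, 341 and 239, at least 4.24-fold higher, and INPP5D at 119, 1325 and 502. PTPN6, the phosphatase SHP-1, had a day 1 signal far above both other days, at 84.1, 1033 and 213, and rose by 1.57. The kinase SRC rose by 2.65, RASGRP1, which activates Ras, by 1.89, and DAPP1, an adaptor of B cells, by 1.69. The kinases PRKCD and LYN stood at 1069, 4413 and 2384 and 1155, 4084 and 2436, with day 3 between the other days. Among 42 tyrosine and dual specificity phosphatases 5 rose and 0 fell, led by DUSP5, which inactivates ERK in the nucleus, at 189, 3319 and 1958. PTP4A3 rose by 1.73 and by 1.99 on its second probe, PTPRG by 1.24 and DUSP10 by 1.07. The call of DUSP10 ended in the authors' values, without background correction and with the offset of 50.

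Some genes of Ras signalling and of the actin cytoskeleton rose. Of 38 Ras and Rap genes 4 rose (10.5%), among them RAPGEF3, which activates Rap when cAMP is present, at 61.8, 1530.5 and 282, at least 5.13-fold higher. SPRED2, an inhibitor of Ras to ERK signalling, rose by 1.44, and RASSF2 by 1.72. Of 94 actin cytoskeleton genes 6 rose (6.38%) and 2 fell (2.13%), near the 4.95% and 2.13% of all measured genes. WAS, the Wiskott-Aldrich protein that starts actin branches in blood cells, was at least 5.2-fold higher, and NCKAP1L, of the WAVE complex in blood cells, stood at 595, 3892 and 1324. CAPG, which caps filaments, rose by 1.64 and VASP by 1.36, while DBN1, drebrin, fell by 1.83, from 976, 163 and 259. Of 27 regulators and subunits of G proteins 6 rose and 1 fell. GNA15, a G protein of blood cells, was at least 4.77-fold higher, and RGS13 and RGS1, which shorten G protein signals in B cells, rose by 1.63 and 1.24.

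**Figure D3:**
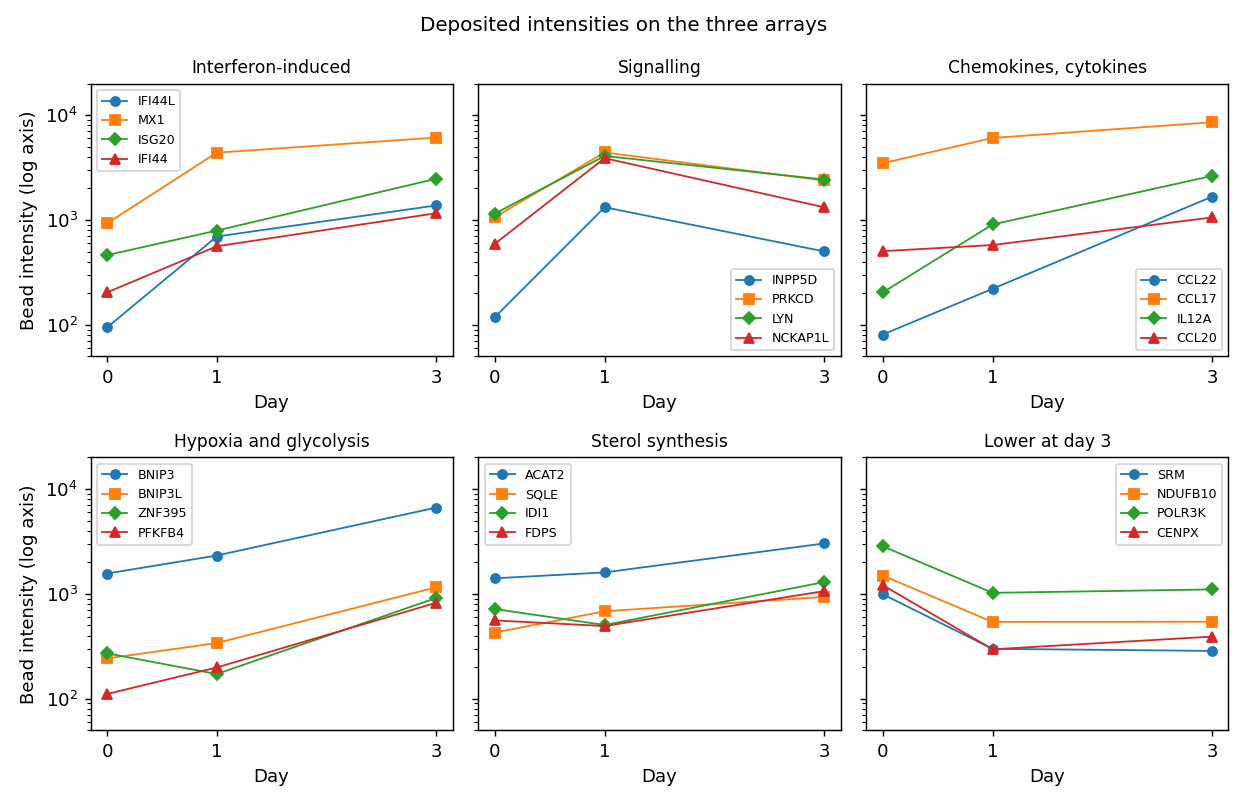
Each panel gives the deposited bead intensity of 4 genes (log y axis) on the arrays of day 0, day 1 and day 3, 1 array a day and no error bar. Interferon-induced, chemokine and cytokine genes shown were highest at day 3, the signalling genes at day 1. ZNF395, IDI1 and FDPS were lower at day 1 than at day 0, and the genes in the last panel stood low at both later days.

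Among the metabolic lists, that of glycolysis and the hypoxia response had the most rises. Of 48 measured 17 rose and 0 fell, and 12 rose in the authors' values. The median was 0.83, or 0.76 with bounds, against 0.42 at day 1. PFKFB4, which sets the level of a potent activator of glycolysis, had intensities of 111 at day 0, 198 at day 1 and 821 at day 3 and rose by 3.20. BNIP3 and BNIP3L, which mark mitochondria for removal, stood at 1560.5, 2318 and 6642 and 242, 339 and 1153, with most of the rise after day 1. P4HA1, a collagen prolyl hydroxylase, rose by 1.65, and SLC2A3, the glucose transporter GLUT3, stood at 551, 1533 and 1761. ZNF395 and DDIT4, an inhibitor of mTOR, were below day 0 at day 1 and above it at day 3, at 271, 172 and 912 and 517, 369 and 1314. By bound, ANGPTL4, which inhibits lipoprotein lipase, was at least 2.22-fold higher. The 16 measured glycolytic enzymes themselves had a median of 0.46, and 1 of them, ENO2, rose, by 1.03. LDHB changed by -0.18, and PGK1 by 0.90 without passing. The call of ANGPTL4 ended in the authors' values, without background correction and with the offset of 50, and that of ENO2 in the authors' values.

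Most cholesterol genes had higher signals at day 3 than at day 0, though few passed the rule. Of 28 measured genes of sterol synthesis and uptake 6 rose and 0 fell, with a median of 0.83, against 0.05 at day 1. Of the 17 synthesis enzymes 16 lay above 0, with a median of 0.82, against -0.09 at day 1. SQLE, the squalene epoxidase, had intensities of 427 at day 0, 682 at day 1 and 934 at day 3, and ACAT2, which starts the pathway from acetyl-CoA, stood at 1406, 1600.4 and 3021. FDPS and IDI1, which make its isoprenoid units, were below day 0 at day 1 and above it at day 3, at 557, 493 and 1060.4 and 716, 504 and 1293. STARD4, which carries cholesterol, rose by 1.52 and LPIN1, a phosphatidate phosphatase, by 1.57. Of 43 genes of fatty acid synthesis and oxidation 0 rose and 1 fell, HADH, an enzyme of beta-oxidation, at 774, 218 and 298. The calls of FDPS and IDI1 ended in the authors' values.

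Other metabolic lists held few changes. ADA, which removes adenosine, was at 52.5 at day 0, 121 at day 1 and 800.0 at day 3, at least 15.5-fold higher. In its list of 52 purine and pyrimidine genes the adenylate kinase AK4 rose by 2.14, from 357, 549 and 1349, and the uridine phosphorylase UPP1 by 1.91. DTYMK, which makes thymidine diphosphate, fell by 1.04. Rises and falls made up 5.77% and 1.92% of the list, against 4.95% and 2.13% of all measured genes. The list's median was -0.37, so that the rises stood apart from most of its members. Of 24 amino acid transporters SLC7A7 and SLC7A2, both carriers of cationic amino acids, rose by 1.95 and 1.50. SRM, the spermidine synthase, stood at 989, 299 and 285 and fell by 1.70, while SAT1, which starts the breakdown of spermidine, rose by 1.11. GCAT, which ends the breakdown of threonine to glycine, and AHCY, of the methyl cycle, fell with changes of -1.71 and -1.22 among 26 one-carbon genes, of which 0 rose. The call of DTYMK ended without background correction and with the offset of 50, and that of SAT1 in the authors' values and with the offset of 50.

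Genes of mitochondria lay below day 0 as groups, by amounts mostly short of the rule. Of 48 measured proteins of the large mitochondrial ribosomal subunit 2 fell, 0 rose and 47 lay below 0, with a median of -0.43. Of 30 in the small subunit 4 fell and 29 lay below 0, with a median of -0.44. Among all measured genes 54.9% lay below 0. The same medians at day 1 were -0.72 and -0.94. MRPS34 had intensities of 406 at day 0, 127 at day 1 and 130.2 at day 3 and fell by 1.67. MRPS26, MRPS16 and MRPS2 fell with changes of -1.11, -1.06 and -1.06, and MRPL41 and MRPL12 with changes of -1.23 and -1.21. Of 35 protein import genes 3 fell, 0 rose and 33 lay below 0. DNAJC19, a co-chaperone of import, fell by 1.26, and TIMM8A and TIMM8B, chaperones between the membranes, with changes of -1.10 and -1.07. The call of TIMM8B ended in the authors' values, without background correction and with the offset of 50, that of MRPS2 without background correction and with the offset of 50, and those of MRPL41, DNAJC19 and TIMM8A with the offset of 50.

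Respiratory chain genes had the same direction. Of 39 complex I genes 3 fell and 0 rose, with a median of -0.46, against -0.81 at day 1. NDUFB10, an accessory subunit, had intensities of 1491 at day 0, 539.6 at day 1 and 541 at day 3, and the assembly factor NDUFAF2 stood at 816, 283 and 299.8. A further assembly factor, NDUFAF4, fell by 1.02. UQCR11 fell by 1.09 among 37 genes of complexes II to IV. ATP5F1D fell by 1.16 among 21 of ATP synthase, with -0.98 on its second probe. Of 30 genes of the tricarboxylic acid cycle 0 passed the rule, with a median of -0.29. Of 40 carriers of the inner membrane 0 rose and 2 fell. SLC25A10, which exchanges dicarboxylates for phosphate, stood at 323, 80.5 and 91.5, and SFXN4 fell by 1.01. MARS2, which loads methionine on tRNA in mitochondria, stood at 916, 319 and 313 and fell by 1.44. The 14 measured mitochondrial tRNA synthetases had a median of -0.58 and 13 lay below 0, while the 17 cytosolic ones had a median of -0.10. ATAD3A, an ATPase of the inner membrane, fell by 1.52, and ENDOG, a nuclease of mitochondria, was at least 2.94-fold lower. The calls of NDUFAF4 and UQCR11 ended in the authors' values, without background correction and with the offset of 50, and that of SFXN4 without background correction, with the offset of 50 and with the mean of probes.

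**Figure D4:**
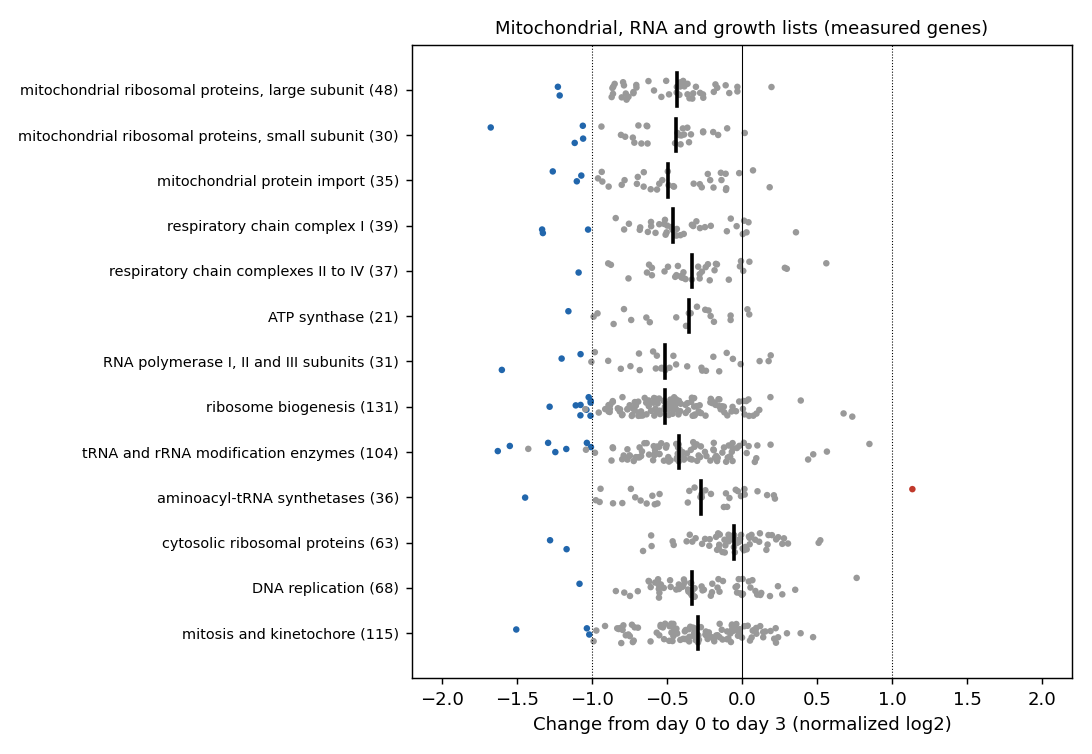
Each point is a measured gene, the x axis is its change from day 0 to day 3 in normalized log2, and black bars are list medians. Blue and red points passed the 2-fold rule, grey ones did not. Most lists lie left of 0 with medians between -0.51 and -0.27, while the cytosolic ribosomal proteins centre at -0.05.

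The machinery that makes ribosomes and RNA also lay low. Of 131 measured ribosome biogenesis genes 9 fell, 0 rose and 118 lay below 0, with a median of -0.51. The authors' values gave 13 falls, and 4 fell without background correction. RRP9 had intensities of 676 at day 0, 241 at day 1 and 260.1 at day 3, and NOP16, a nucleolar protein, stood at 2465, 865 and 1025. BOP1, which matures the large subunit, stood at 5293, 2837 and 2405. WDR46, of the small subunit, was not lower at day 1, at 466, 495 and 210.5. Of 31 RNA polymerase subunits 3 fell and 0 rose. POLR2L, shared by the nuclear polymerases, fell by 1.60, POLR3K, of polymerase III, stood at 2838, 1021 and 1101, and POLR1B, of polymerase I, fell by 1.07. Of 104 enzymes that modify tRNA or rRNA 7 fell and 0 rose, led by DUS3L, which makes dihydrouridine, at 332, 145 and 113. ALKBH2, which repairs alkylated DNA and is kept in that list by its family, fell by 1.29, and RPUSD3, a pseudouridine synthase of mitochondria, fell by 1.24. The call of POLR1B ended without background correction and with the offset of 50, and those of BOP1 and WDR46 with the offset of 50.

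Cytosolic ribosomal proteins did not share this shift. Their 63 measured genes had a median of -0.05, near that of all genes, and RPS23 and RPS21 fell, with changes of -1.28 and -1.17. Of 159 splicing genes 1 passed the rule, LSM10, which fell by 1.08. Of 62 translation factors 2 rose (3.23%) and 1 fell (1.61%), against 4.95% and 2.13% of all measured genes. EEF1A2, an elongation factor of muscle and nerve, was at 62.6, 108 and 265, at least 4.79-fold higher, and EIF2AK2, the kinase PKR that stops translation on double-stranded RNA, stood at 2478, 3099 and 4632. Of 95 chaperones 4 fell (4.21%) and 1, DNAJB9, rose (1.05%). DNAJB1 and CCT5, which help fold new proteins, fell with changes of -1.21 and -1.19. DNAJB9, a partner of BiP in the endoplasmic reticulum, stood at 494, 634 and 1299. It belongs also to the list of unfolded protein and amino acid stress. Of the 45 in that list 8 rose (17.8%) and 0 fell, and 4 rose in the authors' values. XBP1, the regulator of secretory capacity, was below day 0 at day 1 and above it at day 3, at 1495, 1333 and 2852, and SESN3, a stress sensor upstream of mTOR, rose by 1.98. The calls of RPS21 and LSM10 ended with the offset of 50, and those of EIF2AK2 and XBP1 in the authors' values.

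Few cell cycle genes beside CDKN1A passed the rule, though most replication and mitosis genes lay below day 0. Of 68 DNA replication genes RPA4 fell by 1.08 and 0 rose, with a median of -0.33. Of 115 mitosis genes 3 fell and 0 rose, with medians of -0.29 at day 3 and -0.08 at day 1. In these lists 79.4% and 80.9% of genes lay below 0 at day 3, against 54.9% of all measured genes. CENPX and CENPS, histone-fold partners at the kinetochore and in DNA repair, stood at 1208, 296 and 391 and 272, 96.5 and 135, and the second probe of CENPS fell by 1.07. CDC20, an activator of the anaphase-promoting complex, had most of its fall after day 1, at 4125 at day 0, 3721 at day 1 and 1815 at day 3. Of 66 cyclins, kinases, inhibitors and E2F genes 3 rose (4.55%) and 2 fell (3.03%), against 4.95% and 2.13% of all measured genes. GADD45A, a damage-response gene, and BTG1, an antiproliferative gene, stood at 204, 486 and 769 and 824, 2163 and 2182. SKP2, which marks CDKN1B for destruction, stood at 1653, 728 and 702, and its probes changed by -1.08 and -1.36. MXD1, a rival of MYC for MAX, rose by 2.21, in a list of 26 MYC network and related factors where BHLHE22 and HES4 rose too, by 1.97 and 1.57, and 0 fell. The call of RPA4 ended in the authors' values, without background correction and with the offset of 50, and that of CENPS without background correction and with the offset of 50.

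Survival genes and NF-kB regulators rose in small numbers. Of 19 BCL2 family genes 4 rose and 0 fell. BCL2A1, a survival member, had intensities of 242 at day 0, 379.5 at day 1 and 1123 at day 3, and most of its rise came after day 1. BMF, a death-promoting member, was at least 3.19-fold higher, at 63.8, 254 and 184, and BNIP3 and BNIP3L were described above. CFLAR, a blocker of caspase 8, stood at 2549.5, 6631 and 6437 and rose by 1.50. Of 33 caspase and inhibitor genes CFLAR, XAF1 and BIRC2 rose and ENDOG, CIDEB and DFFA fell, with changes of 1.33 for BIRC2 and -1.16 for CIDEB. Of 34 NF-kB subunits and feedback inhibitors 4 rose and 0 fell, and 1, TNFAIP6, rose in the authors' values. TNFAIP6, a hyaluronan-binding protein, stood at 451, 836 and 1974. TNFAIP3, the deubiquitinase A20, stood at 4427, 10571 and 8807, TRAF1 rose by 1.08 and TNFAIP2 was at least 2.29-fold higher. Of 22 JAK, STAT and SOCS genes SOCS2, JAK2 and PIM2 rose, SOCS2 at least 3.93-fold. The call of DFFA ended without background correction, with the offset of 50 and with the mean of probes, those of TNFAIP2 and PIM2 in the authors' values, without background correction and with the offset of 50, that of CIDEB without background correction and with the offset of 50, that of BIRC2 with the offset of 50, and those of TNFAIP3, TRAF1 and JAK2 in the authors' values.

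Antigen presentation genes lay mostly above day 0, and few passed the rule. Of 39 measured genes 5 rose and 0 fell, 1 in the authors' values. The median was 0.51, against 0.73 at day 1. TAP1, which carries peptides to class I molecules, had intensities of 753 at day 0, 1878 at day 1 and 1664 at day 3, and its partner TAP2 rose by 1.16. HLA-E, HLA-F and the immunoproteasome subunit gene PSMB8 rose by 1.11, 1.11 and 1.05. All 14 measured HLA class II genes lay above 0, with a median of 0.51, and 0 passed the rule. Probes of HLA genes can read their relatives. The call of PSMB8 ended in the authors' values, with the offset of 50 and with the mean of probes, and those of TAP2, HLA-E and HLA-F in the authors' values.

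Transcription factor genes changed singly. Of 50 ETS, RUNX, GATA, IKAROS and IRF genes 4 rose (8.0%) and 1 fell (2.0%), against 4.95% and 2.13% of all measured genes. IRF9, an interferon regulatory factor, stood at 786 at day 0, 1764 at day 1 and 1823 at day 3, and the ETS gene ETV5 at 73.5, 338 and 177. PRDM1, the plasma cell regulator, rose by 2.71 on 1 probe while its second changed by 0.02. BCL11A, a factor of B cells, fell by 1.04. Of 45 KLF, EGR and AP-1 related genes 4 rose (8.89%) and 0 fell. EGR1, an immediate early gene, stood at 121, 282 and 431, ATF3, a stress-induced factor, at 1972, 2482 and 3807, and MAFF was at least 3.49-fold higher. Of 49 nuclear receptors and cofactors RORA rose by 1.65 and NR2F6 fell by 1.26, which is 2.04% each way. Of 263 ZNF genes 8 rose and 2 fell, 3.04% and 0.76%, below the 4.95% and 2.13% of all measured genes. The call of BCL11A ended in the authors' values, without background correction and with the offset of 50, that of ATF3 in the authors' values, and that of NR2F6 with the offset of 50.

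Lysosome genes rose in a larger share than all measured genes, while few RAB and vesicle genes passed the rule. LAMP3, a lysosomal protein of mature dendritic cells, stood at 126 at day 0, 1887 at day 1 and 1554 at day 3, and CD68, a lysosomal glycoprotein of macrophages, at 159.9, 4022 and 529, so that CD68 had lost most of its day 1 signal. Of 59 lysosome genes 6 rose (10.2%, against 4.95% of all measured genes) and 1 fell. Of 71 RAB genes 2 rose (2.82%), RAB6B and RAB12, and of 185 vesicle genes 4 rose (2.16%) and 1 fell, shares of rises below the 4.95% of all measured genes. VAMP5 and STXBP6 were at least 2.67-fold and 2.06-fold higher, CHMP5 and SEC24D rose by 1.17 and 1.01, and STX10 fell by 1.06. ATP6V0A2 rose by 1.38 and ATP6V0E2 fell by 1.20 among 20 genes of the vacuolar proton pump. Of 221 ubiquitination genes 7 rose (3.17%) and 0 fell. USP18 and HERC5, which remove and attach the interferon-induced modifier ISG15, stood at 158, 233 and 534 and 1001, 1920.4 and 2501. The calls of STXBP6 and SEC24D ended in the authors' values, without background correction and with the offset of 50, that of RAB12 in the authors' values and with the offset of 50, that of CHMP5 in the authors' values, and that of STX10 with the offset of 50.

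The falls outside these families were of single genes. ADISSP, a secreted factor, stood at 557 at day 0, 186 at day 1 and 156 at day 3, and PHACTR3, a regulator of protein phosphatase 1, at 1510.5, 542 and 466. WDR77, the partner of the arginine methyltransferase PRMT5, fell by 1.53 and SMARCD3, a subunit of SWI/SNF remodellers, fell by 1.44. MSRB3, which repairs oxidised methionine, fell by 1.49 and DCXR, a reductase of sugars, fell by 1.49. HEMK2, a methyltransferase, fell with changes of -1.47 and -1.33 on its probes. PACSIN3, which bends membranes, was at 184, 51.2 and 61.9, at least 3.28-fold lower, and DLEU1, a non-coding RNA gene, at least 2.67-fold lower. The call of DLEU1 ended with the offset of 50.

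A second probe above background at day 0 or day 3 was at hand for 25 of the genes that rose and 16 of those that fell. For the rises it had the same sign in 24 genes and reached 2-fold in 14, with a median of 1.11 log2. For the falls it had the same sign in 15 and reached 2-fold in 5, with a median of -0.93. It was above background on both arrays for 15 of the rises, with 14 of the same sign and a median of 1.15, and for 12 of the falls, with 12 of the same sign and a median of -0.95. PRDM1 lay near 0 on its second probe. MECOM, a zinc finger factor, fell by 1.23 on its brighter probe and changed by 0.62 on the other, and its second probe, like that of CD82, was not above background on 1 of the arrays. Where probes of 1 gene disagree, which of them reads the transcript was not tested. The call of CD82 ended with the offset of 50 and with the mean of probes, and that of MECOM with the mean of probes.

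**Figure D5:**
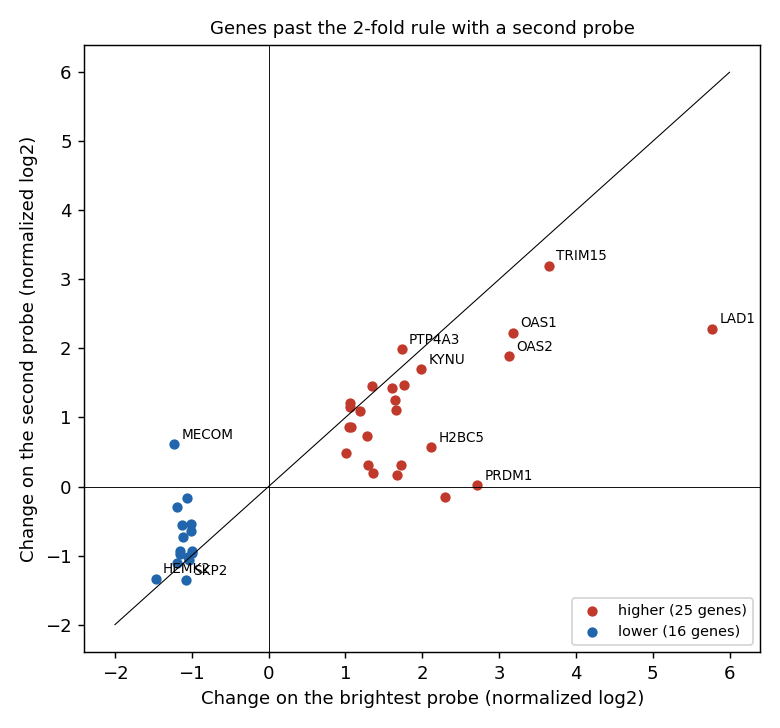
The x axis is the change on the brightest probe and the y axis the change on the second probe, both in normalized log2, for 25 genes that rose (red) and 16 that fell (blue). The line marks equal change. LAD1 and TRIM15 lie highest, with day 0 signals not above background on either probe, while PRDM1 lies near 0 on its second probe and MECOM has opposite signs.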

How the data were processed

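Per the file headers, the deposited file lists for every one of 48701 probes a bead intensity on a linear scale and a detection p-value per array. BeadStudio 3.3.7 is named in the submitters' processing notes. TRIzol extraction and a TotalPrep amplification kit are named in the labels' protocols. The authors' deposited log2 table was matched to the intensities: its values are log2 intensities after subtraction of each array's 75th percentile and of each probe's median over the 3 arrays, with a largest deviation of 2.48e-06. It served as an alternative.

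Background was inferred from the detection p-values and removed by normexp (limma 3.58.1, R 4.3.3), an offset of 16 was added, and all 3 arrays were quantile normalized before log2 was taken. The offset shrinks changes of dim probes, and the quantile step removes any shift shared by most genes. The step was tested on simulated data with equal numbers of rises and falls, placed only in brighter probes. Changes of dim probes and an excess of rises were not simulated. Python 3.11.15, pandas 2.3.3, numpy 2.4.6 and matplotlib 3.10.9 did the rest.

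Of the probes, 24303 had 1 gene symbol in the platform annotation and 24398 had none. Of the named ones, 24089 were updated by gene ID and 50 by accession through RefSeq, and 164 kept the platform's symbol. The brightest probe stood for a gene with several (3093 of 19367). The probes above background numbered 10838, 11317 and 11272 at days 0, 1 and 3, and the number of arrays limits the precision.

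The members and the 66 gene lists were chosen with earlier results of these data known. Named genes are the 30 largest rises and falls, the largest by bound, and up to 5 members of each list past the rule (all where 6 or fewer passed), though not all of these are printed. BOP1, DAPP1, ENO2, KDM4B, KDM6A, LTA, LYN, MECOM, P4HA1, PGK1, PRKCD, RIGI, SETD6, SLC2A3, TNF and TNFRSF19 were named after their values were seen. The members of 1 list are not reported here. Promoter windows came from RefSeq on GRCh38.p14. Alternatives were 8 changes of the background correction, the scaling, the detection filter and the choice of probe.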

Additional observations from a re-analysis of the deposited data

Results flagged for a closer look

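Probes without a gene name also held a signal that the report's genes do not cover. Of 24398 such probes 1784 were above background at day 0 or day 3. By the same rule 52 of them were higher at day 3 (2.91%) and 30 lower (1.68%), against 4.95% and 2.13% of named genes. The largest rise among those above background on both arrays was that of probe ILMN_1906815, with intensities of 109.0 at day 0, 183.0 at day 1 and 737.7 at day 3 and a change of 3.07 log2. The sources used here do not say which transcripts these probes read.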

How the results depend on the processing

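The count of rises was 455 and lay between 315 and 569 under the 8 alternatives, and the count of falls was 196 and lay between 97 and 259. The fall count of 97 came with an offset of 50, which shrinks the changes of dim probes by construction. The authors' values gave 315 rises and 259 falls, and the signals without background correction gave 387 and 132. No named gene past the rule changed direction in the alternatives run. Of 263 named genes past the rule, 47 calls ended in the authors' values, 37 without background correction, 60 with the offset of 50 and 4 with the mean of probes. With the filter set above background on both arrays 48 ended, since it drops genes that rest on a bound. None ended with the day 0 and day 3 arrays normalized alone, at a detection p-value of 0.05 or with the filter left off. Taken relative to all measured genes, the medians of 2 of the 66 lists, tetraspanins and the vacuolar ATPase, changed sign in the authors' values, and neither was over 0.08 in size. Without that adjustment 5 medians changed sign, none over 0.06 in size.

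No paired analysis was possible because each day has 1 array. No replicate was left out for the same reason. Of the 19367 named genes, 10177 were not above background at day 0 or day 3, and changes among them were not detectable.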

Other observations

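Among 163 measured genes of chromatin modifiers and remodellers 5 rose (3.07%, against 4.95% of all measured genes), and all 5 were lysine demethylases, enzymes that remove methyl groups from histones. This group was chosen after its values were seen, so its count is a description. Of 10 measured KDM genes all lay above 0, with a median of 0.82 log2, 0.74 at day 1 and 0.62 in the authors' values, where 2 of them rose. KDM2B, which recognises unmethylated CpG islands, had intensities of 1597 at day 0, 3592 at day 1 and 4285 at day 3 and rose by 1.58. KDM3A, which lifts a mark of silent chromatin, stood at 85.9, 176 and 196, and KDM6A, which lifts the Polycomb mark, at 108, 184 and 212. KDM4B had nearly the same signal at day 1 as at day 0, at 83.2, 83.3 and 152, and rose by 1.05, and KDM4C was at least 2.1-fold higher. The falls in that list were SMARCD3, the Polycomb gene CBX2 with a change of -1.30 and SETD6, a lysine methyltransferase, with -1.13. The calls of KDM4B and KDM4C ended in the authors' values, without background correction and with the offset of 50, that of KDM6A in the authors' values and with the offset of 50, and that of SETD6 with the offset of 50.

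Histone genes went both ways, with 2 rises and 2 falls among 31 measured. That is 6.45% each way, on few genes, against 4.95% and 2.13% of all measured genes. H2BC5 rose by 2.12, H4C8 rose by 1.27, and H2BC9 and H4C12 fell with changes of -1.45 and -1.02. Among 91 genes of cilia SPAG4, a protein of the sperm tail and nuclear envelope, rose by 2.10, from 88.7, 121 and 315, and B9D1, of the ciliary transition zone, fell by 1.17. Of 43 autophagy genes UVRAG, CALCOCO2 and MAP1LC3B rose by 1.05, 1.02 and 1.01, beside BNIP3 and BNIP3L, and 0 fell. The calls of H4C12, CALCOCO2 and MAP1LC3B ended in the authors' values, without background correction and with the offset of 50, that of UVRAG in the authors' values and with the offset of 50, and that of B9D1 with the offset of 50.

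Genes that fell were compact. The median span of the gene in RefSeq was 13.5 kb for the 196 that fell, 29.4 kb for 453 of the 455 that rose and 27.9 kb for 9160 of all measured genes. In 5 bins of equal size by gene span, the median change was -0.15, -0.14, -0.07, -0.01 and 0.05 log2 from the shortest bin to the longest, and the share that fell was 3.98%, 2.24%, 1.64%, 1.26% and 1.58%. At day 1 the same bins had medians of -0.23, -0.14, -0.07, -0.02 and 0.07. Span includes introns, genes are not replicates, and no test was made.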
